A study of Macaca fascicularis with 16 samples.

Results

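Gene expression was compared between old and young male lungs of the cynomolgus monkey (Macaca fascicularis), a macaque used as a close relative of humans in studies of ageing. The members are the 8 of the series' 16 bulk RNA sequencing libraries that are labelled male, 4 from old and 4 from young animals, chosen by age class and sex and not by any measured value. The 4 old and 4 young female libraries of the series enter only where the sexes are compared. The labels give lung tissue, age class and sex for each library, and no age in years, treatment, strain or lobe is given in the sources used here. Nothing in them ties 1 library to 1 animal, and the p-values therefore measure only how far these samples vary, which may be technical in part.

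The lung exchanges gases across thin alveolar walls, which are lined by flat type 1 cells and by type 2 cells that secrete surfactant. Airways add ciliated and secretory cells, and every piece of lung also carries vessels, connective tissue and resident immune cells. With age the lung is known to lose elastic recoil and its airspaces widen. In bulk tissue, a lower level of a gene can mean fewer cells of a type or less RNA per cell, and these cannot be told apart. The files list genes by Ensembl identifier, and the name table used here paired 0 of the 27966 identifiers with a symbol. The lung label could therefore not be checked against marker genes, and no pathway or cell type list could be counted.

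Depth ran from 6529562 to 11718427 counts assigned to genes per male library, and 18271 to 18972 genes had at least 1 count. Old libraries held 9783750 ± 1183390 and young ones 8658820 ± 2196300 counts (SD, n = 4 each), which did not differ beyond that spread (p = 0.429 in a two-sided exact permutation test). None of 4 other library measures differed by age in the same exact permutation test, with p between 0.20 and 0.686, where 0.0286 is the smallest p that 4 against 4 libraries allow. These were the percentage of reads on no feature, the genes with a count, and the shares of counts in the 10 and in the 100 most abundant genes. Adjusted over the 5 measures, every p was at least 0.536.

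Old male 3 and young male 1 were examined first, because each lay at the end of a principal component. Components are directions of greatest variance across genes, computed here from log2 counts per 1000000 (CPM) over the 8 libraries. Old male 3 scored 70.7 on the first component (30.5% of the variance), against -38.8 to 13.8 for the other 7. Young male 1 scored 52.9 on the second component (17.5%), against -24.8 to 20.7 for the others. Neither component put the 4 old libraries on a different side from the 4 young ones. On the third (14.5%), old male 4 lay at the end, at -46.0. On the fourth (11.8%), old males 1, 2 and 4 scored 37.4, 18.0 and 11.7, above the young libraries (-27.8 to -0.611). Old male 3 lay among the young ones there, at -15.8.

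**Figure D1:**
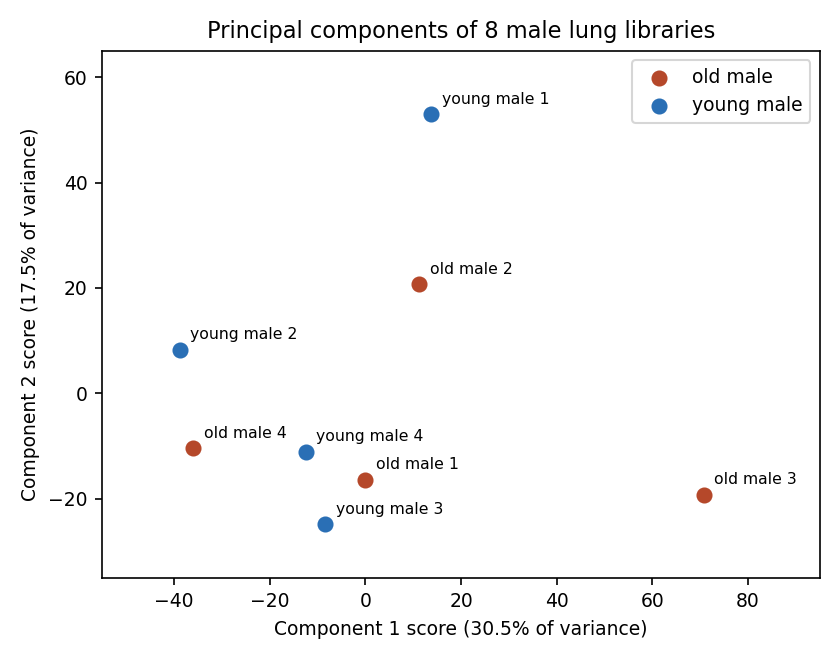
Scores of the 8 male libraries on the first (x axis) and second (y axis) principal component of log2 CPM, 1 point per library, red for old and blue for young. Old male 3 lies alone at 70.7 on the first and young male 1 at 52.9 on the second, and the remaining old and young libraries intermix.

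Rank correlations between libraries gave the same picture. The mean Spearman coefficient of old male 3 with the other 7 was 0.933, against 0.953 for young male 1 and 0.958 to 0.963 for the remaining 6. Pairs of old libraries had a mean coefficient of 0.949 and pairs of young ones 0.964, and old with young 0.955. Without old male 3 and young male 1 these means were 0.964, 0.972 and 0.965. Young male 1 was also the shallowest male library and had the most reads on no feature (29.9% of its counts), whereas old male 3 had 10670475 counts and the lowest such share (23.1%). With each library thinned to 6529562 counts, old male 3 still scored 67.9 on the first component (the others from -36.9 to 11.4) and young male 1 still 49.1 on the second (the others from -24.8 to 22.1).

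The comparison of old with young males asked which genes differ with age in this sex, among the 14729 genes with enough counts in these 8 libraries alone. A single gene passed the threshold of edgeR's quasi-likelihood test, set at 0.05 after Benjamini-Hochberg adjustment, which is 0.00679% of the genes tested. This gene, ENSMFAG00000036714, was higher in the old group. It stood at 80.0 CPM in old male 1, 64.8 in old male 2, 104 in old male 3 and 51.4 in old male 4. In the young males it was 4.24, 2.18, 4.36 and 3.17 CPM, in order of replicate number. All 4 old libraries thus lay more than 10 times above every young one.

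These levels rest on 472 to 1088 counts in each old library and 25 to 34 in each young one. The old mean was 74.9 ± 22.4 CPM and the young mean 3.49 ± 1.02 CPM (SD, n = 4 each). The log2 fold change was 4.45 (SE 0.29, edgeR adjusted p = 0.000553), a 21.8-fold difference. Among genes with a mean of at least 10 CPM, 9 had a gap of at least 2 log2 units between male libraries, with 3 or more on each side. In 1 of these 9, this gene, already picked by its p, the gap parted old from young. Over all 16 libraries its largest gap was 1.72 log2 units, with 6 libraries below and 10 above, and ranked 15. The gene kept adjusted p of 0.00930 or less when any 1 of the 8 libraries was left out, and of 0.00571 without old male 3 and young male 1 together. It lost the call in 1 alternative, where all 16 libraries shared a fit (edgeR adjusted p = 0.0882).

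The next genes by p did not pass. ENSMFAG00000044863 had 72.7, 48.8, 51.6 and 54.1 CPM in old males 1 to 4, against 130, 121, 138 and 164 CPM in young males 1 to 4. Its groups did not overlap, and its log2 fold change was -1.28 (SE 0.16, edgeR adjusted p = 0.0792), with a young mean of 138 ± 18.3 CPM and an old mean of 56.8 ± 10.8 CPM. Without old male 1, the highest of the old libraries and so the nearest to the young ones, its edgeR adjusted p was 0.0240. Without any 1 other library its edgeR adjusted p was 0.107 to 0.296.

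ENSMFAG00000000402 had 254, 327, 337 and 400 CPM in old males 1 to 4, and 95.6, 128, 157 and 123 CPM in young males 1 to 4. The lowest old library was above the highest young one. The log2 fold change was 1.39 (SE 0.18, edgeR adjusted p = 0.103), with a young mean of 126 ± 25.1 CPM and an old mean of 329 ± 59.7 CPM.

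ENSMFAG00000038356 was even across the old males, at 6.01, 5.40, 6.76 and 5.01 CPM, and uneven across the young ones, at 26.9, 10.3, 30.5 and 21.7 CPM. Young male 2 was the lowest of the young libraries, and still above every old one. The log2 fold change was -1.94 (SE 0.31, edgeR adjusted p = 0.277). Without young male 2, the young library nearest to the old ones, it was -2.18 with an edgeR adjusted p of 0.0132. Without any 1 other library the edgeR adjusted p of this gene was 0.1998 to 0.714. It was 0.439 without old male 3 and young male 1 together. These 3 genes had the smallest p of those with a mean of at least 1 CPM after the gene called, beside 1 further gene that was higher in old males. In the fit of all 16 libraries together, ENSMFAG00000000402 and ENSMFAG00000038356 were the 2 genes called (edgeR adjusted p = 0.0490 each).

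**Figure D2:**
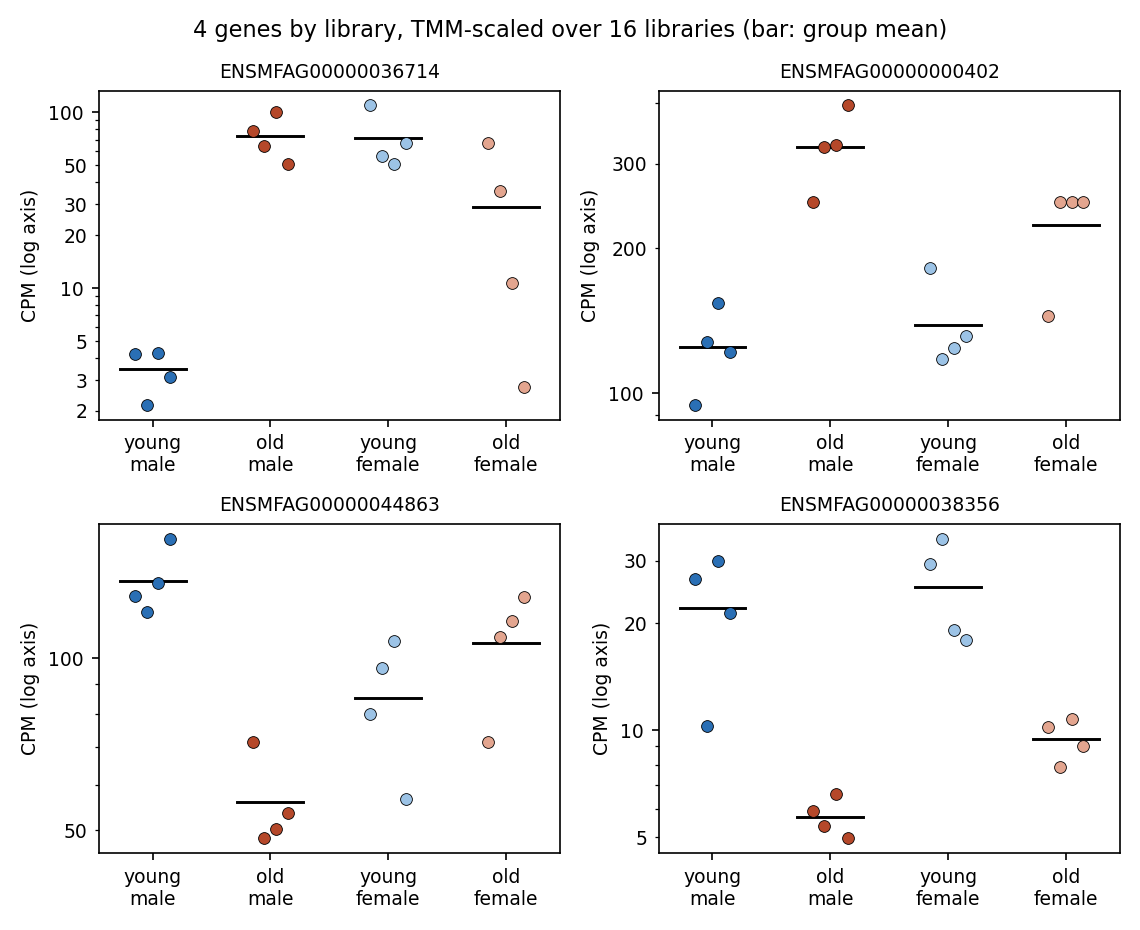
Level of 4 genes in CPM on a log axis, 1 point per library in the 4 groups of 4, scaled over all 16 libraries, so that values differ slightly from those scaled over males. In all 4 genes the old and young male points do not overlap. The points of ENSMFAG00000036714 lie high in all 4 young females and spread from 2.73 to 66.7 CPM in old females.

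Before adjustment, 1088 genes had a p under 0.05, which is 7.39% of those tested, where p-values spread evenly would put 5% there. Of these, 527 were higher in old males (3.58%) and 561 lower (3.81%). The median of their folds was 1.46, and a 2-fold difference was reached by 200. The age groups were fully apart in 716 of all genes tested (4.86%), 324 with the old libraries above (2.2%) and 392 with them below (2.66%). With CPM not scaled by TMM, 394 were above and 333 below, so which direction had more depended on the scaling. Only 2 genes had an adjusted p under 0.10, and 25 under 0.50. DESeq2 called 71 genes on the same counts, 39 higher and 32 lower in old males and ENSMFAG00000036714 among them, while limma-voom called 1, the same gene.

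The share with a small p was higher above 10 CPM than below it. Between 10 and 100 CPM, 669 of 8458 genes (7.91%) had a p under 0.05, 290 higher and 379 lower in old males. At 100 CPM or more the count was 162 of 2135 (7.59%), 77 higher and 85 lower. Between 1 and 10 CPM it was 257 of 4121 (6.24%), and here 160 were higher and 97 lower. Precision followed the level, with a median standard error of the log2 fold change of 0.39 between 1 and 10 CPM, 0.18 between 10 and 100 and 0.15 above.

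**Figure D3:**
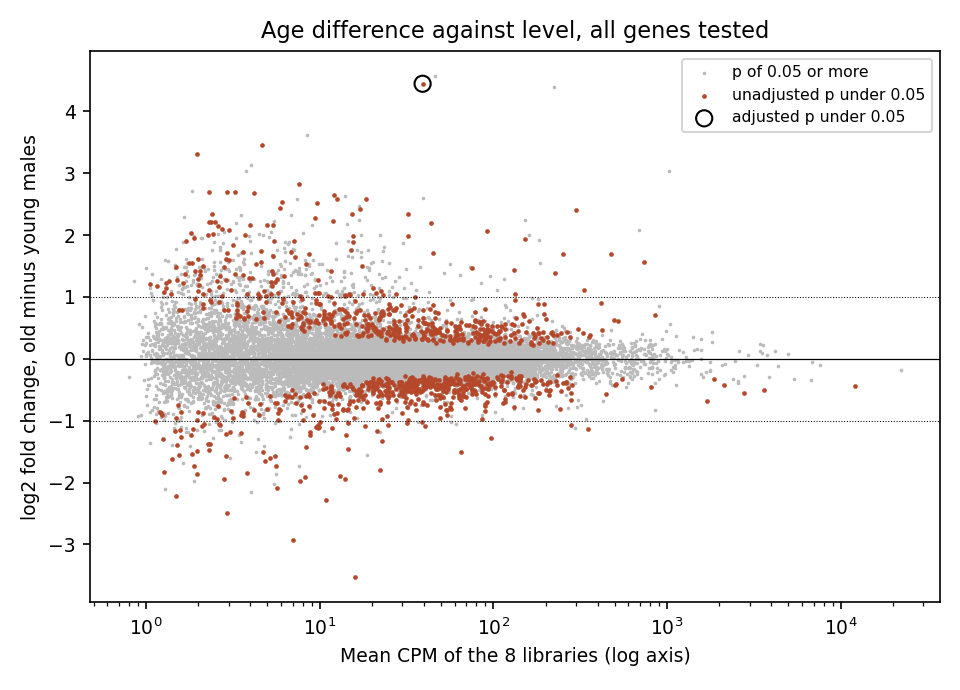
Log2 fold change, old minus young males (y axis), against the mean CPM of the 8 libraries (x axis, log scale), 1 point per gene tested. Red points have an unadjusted p under 0.05, the circle marks the 1 gene called, dotted lines mark 2-fold, and large differences are more often above 0 than below it.

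Large differences leaned towards old males. At least 2-fold apart were 574 genes (3.90% of those tested), 462 higher and 112 lower in old males, although the median log2 fold change of all genes was 0.01. In only 80 of the 574 did the groups not overlap, and 200 had an unadjusted p under 0.05. Most were weakly expressed, 409 of them between 1 and 10 CPM and 21 at 100 CPM or more. Without old male 3 the split was 277 higher and 183 lower, and without old male 1 it was 567 and 236. Without young male 1 it was 658 and 146, and without old male 3 and young male 1 together 382 and 180. The higher genes outnumbered the lower ones with each of the 8 libraries left out.

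**Figure D4:**
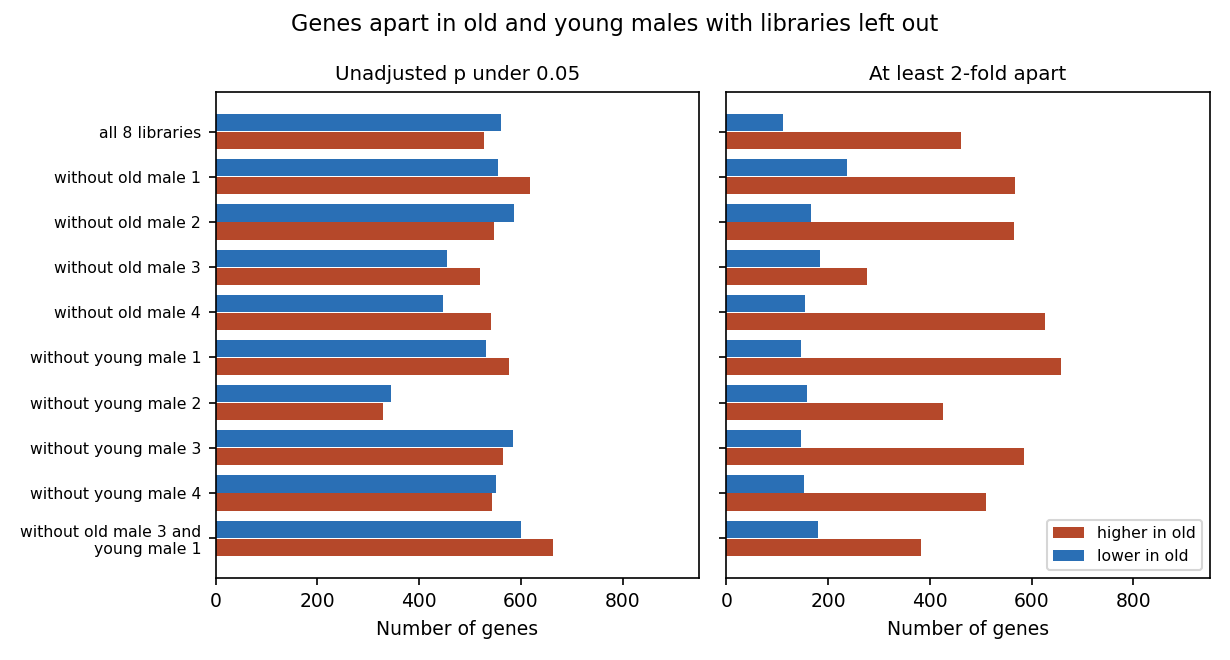
Number of genes higher (red) and lower (blue) in old males, at an unadjusted p under 0.05 (left) and at least 2-fold apart (right), with all 8 libraries and with libraries left out. The 2-fold split is 462 to 112 with all libraries and 277 to 183 without old male 3.

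Young male 2 carried the most weight in the count of small p. Without it 675 genes had an unadjusted p under 0.05, against 973 to 1175 without any 1 of the other 7 libraries. Without old male 3, 973 genes had such a p, of which 679 were among the 1088, and without young male 1 there were 1108, of which 696 were. With both left out, 1264 genes had a p under 0.05, and 577 of these were among the 1088. A similar turnover followed from leaving out other libraries, with 687 of the 1088 kept without old male 4, 734 without young male 4 and 564 without young male 2.

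The spread within each group also changed when old male 3 or young male 1 was left out. Both had been picked as far from the rest, so a smaller spread without them follows in part from that choice. The median standard deviation of log2 CPM across genes was 0.29 in old and 0.27 in young males, and the old spread was larger in 53.6% of the 14729 genes. Without old male 3 the old median was 0.22 and the old spread was larger in 39.0%. Without young male 1 the young median was 0.23, and the old spread was larger in 61.9%. With both left out the medians were 0.22 and 0.23, and the share was 47.9%. Without any 1 other library of its group, the median was 0.28 to 0.29 in old and 0.26 in young males.

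Old male 3 deviated broadly from its group. Over the 10593 genes with a mean of at least 10 CPM, its median absolute distance from the mean of the other 3 old males was 0.31 log2 units, against 0.17 to 0.24 in the other 7 libraries measured within their own groups. At 1 log2 unit or more, 310 genes were above and 272 below. At the largest distances the split was uneven. Against the mean of the other 3 old males, 120 of the 10593 genes were 2 log2 units or more above in old male 3, and 13 were as far below. In the other old libraries, measured the same way, 8 to 50 genes were above and 21 to 106 below, with the 106 in old male 4. The 2 highest differences in old male 3 were those of ENSMFAG00000031798 and ENSMFAG00000036542. ENSMFAG00000031798 had 349 CPM in old male 3 but 4.46, 0 and 0.109 CPM in old males 1, 2 and 4, and 1.10 to 9.16 CPM in young males. ENSMFAG00000036542 had 1592 CPM in old male 3, 18.8, 96.4 and 1.20 CPM in the other old males, and 1.05 to 33.3 CPM in young males.

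High levels of these genes were not limited to old male 3. In old female 1, ENSMFAG00000031798 had 105 CPM and ENSMFAG00000036542 had 544 CPM, and in young female 4 they had 112 and 366 CPM. In old female 3 they were at 0.0969 and 3.97 CPM. Both genes thus ranged widely among libraries of each sex. Their unadjusted p for age in males was 0.0658 and 0.0511 (edgeR's quasi-likelihood test across all genes). Both were picked for a high level in old male 3, which raises the old mean and also the old spread. These p-values therefore cannot decide whether either gene differs with age.

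The 2 genes farthest below in old male 3 were ENSMFAG00000027000 and ENSMFAG00000036866. ENSMFAG00000027000 had 2 counts in old male 3 and 0 in young male 3, but 109 to 288 in the other 6 male libraries. ENSMFAG00000036866 had 2.76 CPM in old male 3 and 8.59 in young male 3, against 50.9 to 156 CPM in the other 6. In both genes the same 2 libraries, 1 old and 1 young, were low. The 8 female libraries had 7.93 to 19.7 CPM of ENSMFAG00000027000 and 43.5 to 133 CPM of ENSMFAG00000036866, so none was as low.

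Young male 1 had 69 genes at least 2 log2 units above the mean of the other young males and 27 as far below, against 11 to 30 above and 11 to 39 below in the other young libraries. ENSMFAG00000020465 had 357 CPM in young male 1 and 9.23 to 14.1 CPM in the other young males. Old male 1 was as high (294 CPM), while old males 2 to 4 had 6.57 to 9.91 CPM. ENSMFAG00000043057 had 268 CPM in young male 1, 11.4 to 16.4 CPM in the other young males, 13.4 CPM in old male 1 and 276 to 484 CPM in old males 2 to 4. In males each of these genes took a high and a low level, and the high level occurred in old and in young libraries. In females, ENSMFAG00000020465 stayed at 1.43 to 19.7 CPM. ENSMFAG00000043057 had 288 to 465 CPM in old females 2 to 4 and 240 CPM in young female 3, and 4.38 to 15.0 CPM in the remaining females.

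On the low side, ENSMFAG00000046389 had 0 counts in young male 1, 6.71 to 26.7 CPM in the other young males, and 1.76 to 142 CPM in old males. ENSMFAG00000042204 also had 0 counts in young male 1, against 69 to 267 counts in each of the other 7 male libraries. At the depth of young male 1, a count of 0 allows a level of up to 0.459 CPM (3 counts, counting error only), so absence is not shown.

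The genes high in old male 3 and those high in young male 1 overlapped, although the 2 sets were picked against different libraries. They shared 41 genes, which is 34.2% of the 120 and 59.4% of the 69. Both sets were picked from the 10593 genes with a mean of at least 10 CPM. Over males, the median log2 CPM of the 120 genes was 6.08 in old male 3, 4.53 in young male 1, 4.13 in old male 2, 3.48 in old male 1, 3.17 in young male 3, 3.04 in young male 4, 2.22 in young male 2 and 1.74 in old male 4. In females, which played no part in picking the genes, it was highest in old female 1 (7.29), followed by young female 3 (5.10) and young female 4 (4.88), and lowest in young female 1 (1.61). Low and high medians occurred in all 4 groups of age and sex. Of the 120 genes, 70 were at least 2-fold higher in old males, against 3.14% of all genes tested, which follows from picking them for a high old library. At levels like theirs, 2-fold differences in either direction were rarer still, at 1.69% between 10 and 100 CPM and 0.98% at 100 CPM or more. An unadjusted p under 0.05 was found for 3 of the 120, where 7.39% of all genes had one (7.91% between 10 and 100 CPM and 7.59% above). Picking genes with 1 far old library also widens the spread in the old group, so this count is no result about age.

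**Figure D5:**
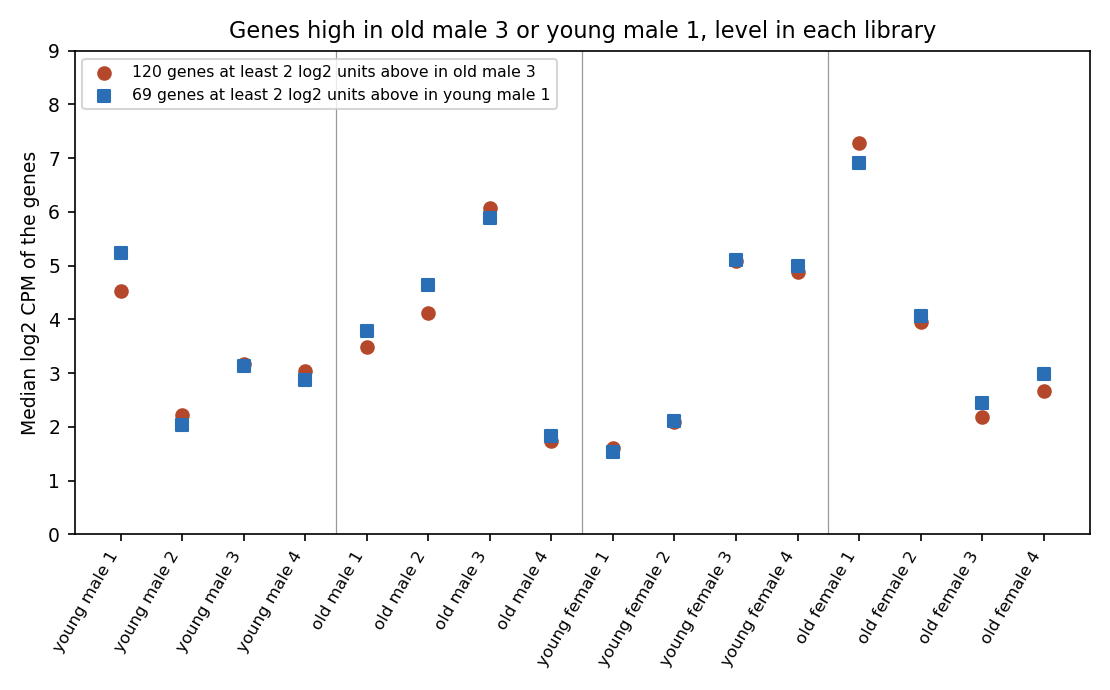
Median log2 CPM (y axis) of the 120 genes high in old male 3 (red circles) and the 69 high in young male 1 (blue squares) in each of the 16 libraries (x axis), scaled over all 16. Both sets move together from library to library, from under 2 in old male 4 and young female 1 to about 7 in old female 1. They share 41 genes, so their medians are not independent.

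The female libraries share no sample with the males and offer a second look at the genes with a small p in males. Of the 1088 genes, 1069 were also tested in the 8 female libraries alone, and 772 of these (72.2%) had the same direction in females. Over all 14530 genes tested in both sexes the share was 63.5%. Of 516 genes higher in old males, 380 were higher in old females (73.6%, against 54.1% of all genes), and of 553 lower in old males, 392 were lower in old females (70.9%, against 45.9%). An unadjusted p under 0.05 in both sexes was found for 248 genes, 204 of them in the same direction. In the 8 female libraries alone, 2251 of 14792 genes (15.2%) had such a p and 0 passed the adjusted threshold. The shared genes make up 23.2% of the male genes and 11.1% of the 2232 female ones tested in males, where 15.4% of all genes tested in both sexes had such a p in females and 7.36% in males.

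The match between the sexes was smaller when old female 1, or old male 3 and young male 1, were left out. No other libraries were left out of this comparison, so whether the fall is particular to these was not tested. Without old female 1, 65.5% of the male genes had the same direction in females, against 57.2% of all genes. Without old male 3 and young male 1 the share was 59.9%, against 56.2% of all. With old male 3, young male 1 and old female 1 all left out, 58.9% of 1253 male genes had the same direction, against 53.9% of all. The Pearson correlation of the age effects across genes was 0.41 with all libraries, 0.02 without old female 1, 0.25 without old male 3 and young male 1, and 0.08 without all 3. Spearman's coefficient was 0.35, 0.13, 0.18 and 0.075 in the same order. Genes are not independent replicates, so these correlations and shares are descriptions.

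The 4 genes with named values in males, picked by p, are given here in females, with all levels now scaled over the 16 libraries. ENSMFAG00000038356 had 7.86 to 10.8 CPM in old and 18.0 to 34.5 CPM in young females, so old and young did not overlap in either sex. Its female log2 fold change was -1.38 (SE 0.23, edgeR adjusted p = 0.0937 in the 8 female libraries). ENSMFAG00000000402 had 249 to 250 CPM in 3 old females and 144 CPM in old female 1, against 118 to 182 CPM in young females. Its female log2 fold change was 0.72 (SE 0.21, edgeR adjusted p = 0.178).

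ENSMFAG00000036714, the gene called in males, did not follow age in females. All 4 young females were high, at 109, 56.7, 50.9 and 67.2 CPM. Old females 1 to 4 had 66.7, 35.7, 10.7 and 2.73 CPM, so 1 old female was as low as the young males. Its female log2 fold change was -1.27 (SE 0.84, edgeR adjusted p = 0.515). ENSMFAG00000044863 had 71.5 to 128 CPM in old and 56.8 to 107 CPM in young females, which overlap, and its female log2 fold change was 0.35 (SE 0.22, edgeR adjusted p = 0.487).

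Whether the age effect differed between males and females was tested by an interaction over all 16 libraries. In edgeR, 0 of 15472 genes passed and 986 (6.37%) had a p under 0.05 before adjustment, while DESeq2 called 59 and limma-voom 0. The age effect of ENSMFAG00000036714 was 5.75 log2 units higher in males (SE 0.98) and that of ENSMFAG00000044863 1.61 log2 units lower (interaction -1.61, SE 0.29), at edgeR adjusted p = 0.141 each. ENSMFAG00000001633 and ENSMFAG00000030780 had the same adjusted p, with interactions of 1.23 (SE 0.21) and -1.28 (SE 0.22). In males, ENSMFAG00000001633 had 132 to 218 CPM in old and 129 to 145 CPM in young libraries, which overlap. In females it had 88.7 to 120 CPM in old and 161 to 217 CPM in young libraries, fully apart. Its female log2 fold change was -0.86 (SE 0.13, edgeR adjusted p = 0.0881 in the 8 female libraries), which did not pass. The fit of 16 libraries gave -0.90 (SE 0.15, edgeR adjusted p = 0.0471). ENSMFAG00000030780 had 35.4 to 41.1 CPM in old and 52.1 to 63.2 CPM in young males, and in females the old libraries (44.7 to 79.1 CPM) began where the young ones ended (29.5 to 44.6 CPM). For ENSMFAG00000038356 and ENSMFAG00000000402 the interactions were -0.53 (SE 0.40) and 0.70 (SE 0.29), with edgeR adjusted p of 0.907 and 0.723.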

How the data were processed

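Bulk RNA was sequenced from lung tissue. Per the labels' protocols, RNA was extracted with TRIzol and libraries were made with the NEBNext Ultra RNA kit, which does not mark strand, so overlapping antisense genes cannot be separated. The values the authors deposited are raw counts, 1 whole number per gene in each library. The sources used here do not name the aligner, counting program, genome build or annotation. The 5 summary entries of each file were left out. They include reads assigned to no feature (23.1% to 29.9% of all counts in male libraries) and reads matching several genes (1.45% to 1.71%). How reads aligned at several places were treated is not recorded, so genes with near-identical copies are uncertain. Library pairs of the same male group differed by more than sampling noise (chi-square per degree of freedom 16.8 to 57.7).

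The analysis ran in edgeR 4.0.16 under R 4.3.3 (filterByExpr by group, TMM factors of 0.971 to 1.05, robust glmQLFit, Benjamini-Hochberg adjustment over all genes tested). The main fit used the 8 male libraries with age alone. The standard error is the log2 fold change divided by the square root of F. CPM are counts per 1000000 scaled by TMM, with a prior count of 2 for log2 CPM. Female age effects came from the 8 female libraries, and the interaction from 4 group means over 16 libraries. Depth limits weak genes most.

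Named genes are those with the smallest p at 1 CPM or more on average, 2 per direction and comparison, called genes first. For old male 3 and young male 1 they are the 2 highest and 2 lowest against the rest of the group, with a mean of at least 10 CPM. The lists of marker and pathway genes that had been drawn up could not be used without symbols. The members, lists and tests were chosen with earlier results of these data known. Alternatives were RLE factors, other count filters, DESeq2 1.42.0, limma-voom 3.58.1, all 16 libraries in 1 fit, a replicate block, the no-feature share as a covariate, no robust step and libraries left out. Thinning to 1 depth and the counts of 2-fold genes without libraries were added after the data had been seen. So was the comparison with females without old male 3, young male 1 or old female 1. The procedure was tested on simulated counts.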

Additional observations from a re-analysis of the deposited data

Results flagged for a closer look

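In 40 groups of 4 values, Dixon's test found 5 in which 1 library lay far from the other 3. For independent groups, chance alone picks out about 1 in 20. Old male 3 and young male 1 were already known to lie apart in these data, and some measures overlap. That rate therefore cannot be set against the hits of these libraries. Old male 3 was far below the other old males in its mean Spearman coefficient with the other 7 male libraries (0.933). Young male 1 was far above the other young males in reads that fell on no feature (29.9% of its counts). It was also far below them in the shares of counts in the 10 most abundant genes (7.27%) and in the 100 most abundant (20.3%). Old female 1 was far below the other old females for ENSMFAG00000000402 (144 CPM).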

How the results depend on the processing

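The number of genes called in old against young males was 1 with RLE factors, a filter of 1 CPM in 4 libraries, limma-voom, the no-feature covariate, no robust step and thinning. It was 3 with no count filter, 71 with DESeq2 and 2 with all 16 libraries in 1 fit, and the cause was not tested. With 1 library left out it ranged from 1 to 3, with 3 genes without old male 1 or young male 2 and 2 without old male 4, and it was 1 without old male 3 and young male 1 together. The count at an unadjusted p under 0.05 ranged from 675 (without young male 2) to 1175 (without old male 1) with 1 library left out, and from 1048 to 1402 in all other alternatives. Genes without overlap ranged from 940 to 1390 with 1 library left out and were 2224 without old male 3 and young male 1, since fewer libraries separate more easily. The interaction was called in 59 genes with DESeq2, in 0 to 3 with 1 library left out (3 without old female 1 or old male 3, and 1 without old female 4), and in 3 without old male 3 and young male 1. The 6 genes named for age or for the interaction kept their direction in each alternative run. The 8 named for old male 3 and young male 1 were not rerun. ENSMFAG00000036714 was called in 18 of 19, while ENSMFAG00000000402, ENSMFAG00000044863 and ENSMFAG00000038356 were called in 3 of 19 each. No pairing of the samples by replicate number was seen, although 4 numbers could miss a weak one. Deviations of same-numbered libraries correlated between -0.13 and 0.087, and 0 of 8 libraries correlated best with their own number. With a replicate block, 1 gene was called in males, with 1228 at an unadjusted p under 0.05, and 0 for the interaction.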
